A study of Mus musculus with 20 samples.

Results

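The MYC-MAX network was followed here in single 8C mouse embryos at E2.5 that had or lacked maternal G9a, the H3K9 methyltransferase encoded by Ehmt2. Its 10 genes were taken by symbol from the 34937 genes counted in each embryo: Myc, Mycn and Mycl, their partner Max, and the repressor genes Mxd1, Mxd3, Mxd4, Mxi1, Mnt and Mga. The files hold 9 Ehmt2Cntr embryos, of which 6 were zygotic +/+ and 3 were +/-, and 10 Ehmt2Mat embryos, of which 5 were +/- (Ehmt2M/+) and 5 were -/- (Ehmt2M/Z). Ehmt2Cntr mothers were Ehmt2F/+ and Ehmt2Mat mothers Ehmt2F/-. The mothers of both groups carried Zp3-Cre, which is driven by an oocyte promoter, so that the floxed allele was also deleted in the growing oocytes of controls, which kept a wild-type allele. All fathers were Ehmt2+/- and the genetic background was mixed. The study collected only embryos judged viable by morphology, and describes the sequenced groups as alike in morphology. It also reports a mild developmental delay of Ehmt2Mat embryos, and that they deviated from controls in developmental progression. The part of stage in the results below was not tested. Which embryos shared a mother is not given in the labels, so that litter and maternal genotype cannot be told apart, and p-values measure the spread between embryos. Zygotic genotype also differed between the groups, as no control was -/- and no Ehmt2Mat embryo was +/+. The main comparison therefore does not separate zygotic from maternal genotype. In RNA of whole embryos, fewer cells of a type and less RNA per cell cannot be told apart.

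MYC proteins bind DNA as heterodimers with MAX and activate transcription from E-box sequences, among them those of genes for ribosome production and cell growth. MXD proteins, MXI1, MNT and MGA compete for the same partner and sites, and recruit histone deacetylase or Polycomb-type repressors. MGA and MAX also sit in a complex with E2F6 that was purified together with G9a and its partner GLP, and that silences germline genes. In the early mouse embryo, MYC activity is linked to cell growth and to competition between neighbouring cells. The comparison asked whether the activators or the repressors of this network differed in embryos without maternal G9a, in which genes of ribosome biogenesis were higher.

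The sequences that join the network to its targets are the E-boxes. The motif CACGTG reads the same on both strands and was searched from 250 bases before to 50 bases after the RefSeq start site of each gene (RefSeq, GRCm38.p6). Of the 9 members with an entry, 3 held the motif, namely Max, Mxd4 and Mnt. The promoter windows of Mycn, Mycl, Mxd1, Mxd3, Mxi1 and Mga held no such letters, and Myc had no entry. Among known MYC target genes of ribosome biogenesis the motif lay in 8 of 27 windows (29.6%), and among other known MYC targets in 9 of 33 (27.3%). Among the 8816 tested genes with an entry it lay in 12.1%. The motif was in 27.8% of the windows of ribosome biogenesis targets that rose and in 33.3% of those that did not pass the test. The surroundings of the E-box are shown for the 3 members and for the 3 targets with the smallest adjusted p-values that held one, with CACGTG in capitals and each read 5′ to 3′ along the strand of the gene. They lie at chr12:76962234-76962263 (minus strand) for Max, chr5:34187897-34187956 (minus) for Mxd4, chr11:74830774-74830833 (plus) for Mnt, chr6:125131796-125131855 (plus) for Nop2, chr7:45830740-45830767 (minus) for Grwd1 and chr11:3963965-3963994 (plus) for Pes1.
Max: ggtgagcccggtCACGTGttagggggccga
Mxd4: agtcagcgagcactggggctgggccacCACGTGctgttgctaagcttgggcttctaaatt
Mnt: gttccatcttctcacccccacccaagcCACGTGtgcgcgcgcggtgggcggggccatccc
Nop2: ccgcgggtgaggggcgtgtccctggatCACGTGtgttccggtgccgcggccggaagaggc
Grwd1: gggccggagtcgCACGTGtgaaaccgga
Pes1: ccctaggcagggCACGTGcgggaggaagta
A match describes the letters of the window and is not evidence of binding in these embryos.

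Total counts ranged from 12985149 to 30053248 in Ehmt2Cntr and from 8231646 to 30602434 in Ehmt2Mat embryos, so that 3 counts were worth 0.0911 to 0.363 CPM, the unit of library-scaled counts used throughout. On the first principal component of log2 CPM, which held 15.3% of the variance, control 10 fell among the Ehmt2Mat embryos (-3.03 to 133) and apart from the other 8 controls (-79.0 to -49.6). The deposited counts of control 8 and the mapped reads that the study lists for it differ in proportion from those of the other embryos. Counts of calls that change without these 2 embryos are given beside the results. All 8 embryo and oocyte markers were detected, Krt8 in 18 of 19 embryos and the others in all. Their summed level was 1925 to 3324 CPM in Ehmt2Cntr and 3085 to 3988 CPM in Ehmt2Mat embryos. Most of this sum was Dppa3, with means of 1924 CPM in Ehmt2Cntr and 2408 CPM in Ehmt2Mat (edgeR quasi-likelihood test, adjusted p = 0.229). Of these 8 markers Tead4 (log2 fold change 0.90) and Tfap2c (0.75) rose and 6 did not pass the test. Of 12 cumulus, oviduct and blood markers, Foxl2, Has2 and Ptx3 were at 0 counts in all 19 embryos, and the summed level was 23.8 to 452 CPM in Ehmt2Cntr and 56.9 to 2953 CPM in Ehmt2Mat. Most of it was Amhr2 and Ovgp1, an oviduct gene with 0.045 to 371 CPM in Ehmt2Cntr and 9.60 to 2799 CPM in Ehmt2Mat (edgeR quasi-likelihood test, adjusted p = 0.0926). The part of these cells in the results below was not tested.

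Ehmt2 itself had 66.6, 133 and 253 CPM as the lowest, median and highest Ehmt2Cntr values, and 58.7, 94.9 and 159 CPM in Ehmt2Mat. The groups overlapped, and the log2 fold change was -0.47 (SE 0.24, adjusted p = 0.233 by the quasi-likelihood test of edgeR, adjusted after Benjamini-Hochberg). Counts were summed over the whole gene, including exons outside the deletion and transcripts of the paternal allele, so that this value does not measure loss of the functional maternal transcript. Ehmt1, which encodes GLP, had a mean of 77.4 ± 26.2 CPM (SD, n = 9) in Ehmt2Cntr and 77.3 ± 31.8 CPM (SD, n = 10) in Ehmt2Mat.

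No member of the MYC-MAX network passed the test between Ehmt2Mat and Ehmt2Cntr embryos. Of the 10 members 9 passed the filter on low counts, and 0 of these 9 had an adjusted p under 0.05 by edgeR, where 9.35% of all 11754 genes tested did. At an unadjusted p under 0.05 by edgeR there was 1 member, Mxi1 (23.3% of all genes). This number was 2 of 10 without controls 8 and 10, 3 of 10 without control 9 and 0 of 8 without Ehmt2Mat embryo 2. With DESeq2 Mxi1 was also the 1 member that passed (16.0% of all genes). The median log2 fold change of the 9 members was 0.24 and 6 of them were positive, against a median of -0.04 over all genes. The median of the members was 0.75 (7 of 9 positive) with zygotic copies as a covariate, 0.59 (8 of 10 positive) in +/- embryos alone and 0.50 without control 9. It was lower in other fits, with 0.16 (4 of 6 positive) for at least 10 counts in every embryo. Without control 7 it was 0.19 (6 of 9 positive), and without Ehmt2Mat embryo 2 it was 0.20 (5 of 8 positive). In all 9 members the values of the groups overlapped, as in all but 0.519% of the genes tested. The intervals were wide for several members, and a p that misses the threshold does not show that a member was equal in the groups. With other settings 0 members passed by edgeR, where the share of all genes that passed was 9.44% with RLE scaling, 9.36% with upper-quartile scaling, 5.67% with no filter, 19.2% with at least 10 counts in every embryo, 6.05% with embryo number as a block, 9.28% without controls 8 and 10, 0.0255% with zygotic copies as a covariate, 0.00746% in +/- embryos alone, and 7.50% to 10.8% with single embryos left out.

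**Figure D1:**
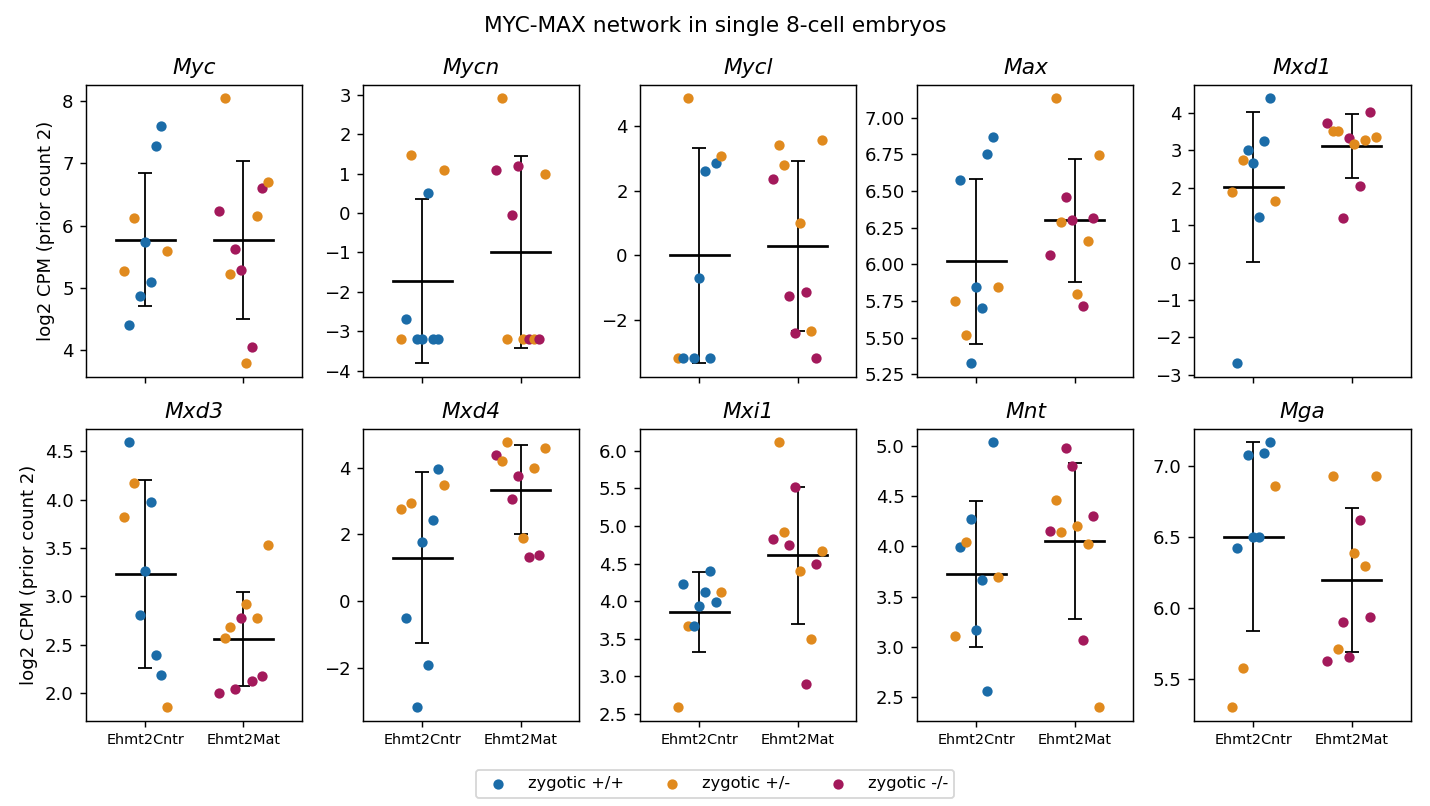
Log2 CPM (prior count 2) of the 10 members of the MYC-MAX network in each embryo, with 1 point per embryo coloured by zygotic genotype, a horizontal line for the mean and a bar for the SD of each group (9 Ehmt2Cntr, 10 Ehmt2Mat). The groups overlap in every panel, Mxi1 is higher in 8 of 10 Ehmt2Mat embryos than the Ehmt2Cntr median, and Mxd3 in 1 of 10.

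Among the activators, Myc (chr15:61985341-61990374, plus strand, GRCm38) was detected in every embryo and its level did not separate the groups. Its lowest, median and highest values were 20.9, 48.3 and 193 CPM in Ehmt2Cntr and 13.7, 59.9 and 265 CPM in Ehmt2Mat embryos. Controls 9 and 8 and Ehmt2Mat embryo 2 were far above the rest, and the ranges overlapped almost fully. The means were 71.4 ± 60.9 CPM (SD, n = 9) and 76.7 ± 73.0 CPM (SD, n = 10), with a log2 fold change of 0.10 (SE 0.48, 95% interval -0.89 to 1.10, edgeR adjusted p = 0.933). The sign of this value turned without Ehmt2Mat embryo 2, where it was -0.36, and it stood at 0.44 without control 9. It was 0.29 without controls 8 and 10, 0.94 (SE 0.72) with zygotic copies as a covariate and 0.89 (SE 0.72) in +/- embryos alone, with edgeR adjusted p-values of 0.784 and 0.948 in the last 2 fits. The SD of Myc within groups was 1.18 on the log2 scale, against a median of 0.93 over all genes tested, with 0.58 and 1.76 as quartiles.

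Mycl (chr4:122995652-123002485, plus strand), the family member best known from lung tumours and dendritic cells, was at 0 counts in 4 of 9 Ehmt2Cntr and in 1 of 10 Ehmt2Mat embryos. Its median and highest values were 0.509 and 28.9 CPM in Ehmt2Cntr and 1.12 and 11.8 CPM in Ehmt2Mat. The highest value belonged to control 3, and some embryos of each group had many counts while others had nearly none. The log2 fold change was -0.62 (SE 1.27, 95% interval -3.23 to 2.00, edgeR adjusted p = 0.838), and it was 0.42 without control 3.

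Mycn (chr12:12936096-12941914, minus strand), which supports pluripotent and neural progenitor cells, did not pass the filter and has no test. It was at 0 counts in 5 of 9 Ehmt2Cntr and in 5 of 10 Ehmt2Mat embryos, and reached at most 2.65 and 7.43 CPM. The embryos with the highest Mycn were control 3 and Ehmt2Mat embryo 2.

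Max (chr12:76937269-76962248, minus strand), the partner that MYC and MXD proteins share at E-boxes, had the smallest spread within groups among the 9 members tested (SD 0.49 on the log2 scale). Its lowest, median and highest values were 40.0, 57.3 and 117 CPM in Ehmt2Cntr and 52.5, 78.5 and 140 CPM in Ehmt2Mat. In 8 of 10 Ehmt2Mat embryos Max was above the Ehmt2Cntr median, and the groups overlapped. The log2 fold change was 0.24 (SE 0.24, 95% interval -0.25 to 0.73, edgeR adjusted p = 0.613). This interval was the narrowest among the 9 members tested. The value was 0.12 without Ehmt2Mat embryo 2, and lay above the interval with zygotic copies as a covariate (0.75, SE 0.36, edgeR adjusted p = 0.582) and in +/- embryos alone (0.77, SE 0.38, adjusted p = 0.787).

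Among the repressors 4 of 6 had a positive and 2 a negative log2 fold change. Mxi1 (chr19:53310506-53375810, plus strand), a MYC antagonist of the MXD family, came nearest to the threshold. Its lowest, median and highest values were 5.91, 15.8 and 21.0 CPM in Ehmt2Cntr and 7.35, 25.95 and 69.2 CPM in Ehmt2Mat embryos. In 8 of 10 Ehmt2Mat embryos it was above the Ehmt2Cntr median, with embryo 2 the highest, while embryos 7 and 8 lay within the lower part of the Ehmt2Cntr range. The means were 15.1 ± 4.39 CPM (SD, n = 9) and 28.7 ± 17.7 CPM (SD, n = 10), and the log2 fold change of 0.92 (SE 0.35, 95% interval 0.20 to 1.65) had an adjusted p of 0.1002 by edgeR. DESeq2 gave a log2 fold change of 0.94 with an adjusted p of 0.0495, so that the call rests on the choice of tool. With single embryos removed the log2 fold change ranged from 0.68 (without Ehmt2Mat embryo 2, edgeR adjusted p = 0.231) to 1.04 (without Ehmt2Mat embryo 7, adjusted p = 0.0507). Exons of Mxi1 share 3.45% of their bases with those of Gm10197, which lies on the other strand. Counting did not use strand, so that reads there were counted for both genes and their origin cannot be told apart.

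Mxd3 (chr13:55325168-55329758, minus strand), the family member found in cycling cells, was the repressor with the most negative value. Its lowest, median and highest values were 3.50, 9.49 and 24.1 CPM in Ehmt2Cntr and 3.89, 6.06 and 11.5 CPM in Ehmt2Mat. Only Ehmt2Mat embryo 10 was above the Ehmt2Cntr median, but controls 9, 8, 5 and 6 lay within the Ehmt2Mat range and control 10 lay below it. The log2 fold change was -0.88 (SE 0.43, 95% interval -1.78 to 0.02, edgeR adjusted p = 0.225), and it was -1.11 without controls 8 and 10 (adjusted p = 0.122) and -0.54 with zygotic copies as a covariate. Of its exon bases 5.0% are shared with Prelid1 on the other strand.

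Mxd4 (chr5:34173883-34187720, minus strand), a repressor linked to differentiating cells, had the most positive value and a wide interval. Its lowest, median and highest values were 0, 5.31 and 15.6 CPM in Ehmt2Cntr and 2.38, 14.7 and 27.1 CPM in Ehmt2Mat. Of the controls, embryo 5 had 0 counts and embryo 7 had 2, whereas 38 was the smallest count in Ehmt2Mat. In 7 of 10 Ehmt2Mat embryos the level was above the Ehmt2Cntr median, and the remaining ones were within the Ehmt2Cntr range. The log2 fold change was 1.29 (SE 0.75, 95% interval -0.25 to 2.83, edgeR adjusted p = 0.314). Gm42846 on the other strand shares 6.06% of its exon bases.

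Mxd1 (chr6:86647042-86669161, minus strand), the founding MXD gene, had 0.0452, 6.204 and 20.8 CPM in Ehmt2Cntr and 2.19, 9.97 and 16.2 CPM in Ehmt2Mat as lowest, median and highest values. Control 2 with 1 count was far below all others. The log2 fold change was 0.53 (SE 0.60, 95% interval -0.70 to 1.77, edgeR adjusted p = 0.655), with 0.35 without control 2, 0.98 without control 9, 1.11 with zygotic copies as a covariate and 1.199 in +/- embryos alone. Mnt (chr11:74830920-74845725, plus strand), the most broadly expressed MYC antagonist, had 5.81, 12.9 and 32.7 CPM in Ehmt2Cntr and 5.17, 18.0 and 31.3 CPM in Ehmt2Mat. Its ranges were nearly the same, with a log2 fold change of 0.32 (SE 0.37, 95% interval -0.44 to 1.07, edgeR adjusted p = 0.667), with 0.17 without controls 8 and 10, 0.20 with zygotic copies as a covariate and 0.56 without control 9.

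Mga (chr2:119897228-119969581, plus strand), the scaffold of the E2F6 complex, was the repressor with the highest counts. Its lowest, median and highest values were 39.2, 90.6 and 144 CPM in Ehmt2Cntr and 49.1, 69.7 and 122 CPM in Ehmt2Mat embryos. In 3 of 10 Ehmt2Mat embryos it was above the Ehmt2Cntr median, and the lowest value of all was that of control 1. The log2 fold change was -0.34 (SE 0.26, 95% interval -0.87 to 0.18, edgeR adjusted p = 0.462). Its sign turned to 0.40 among the +/- embryos of both groups alone (3 against 5, edgeR adjusted p = 0.970).

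**Figure D2:**
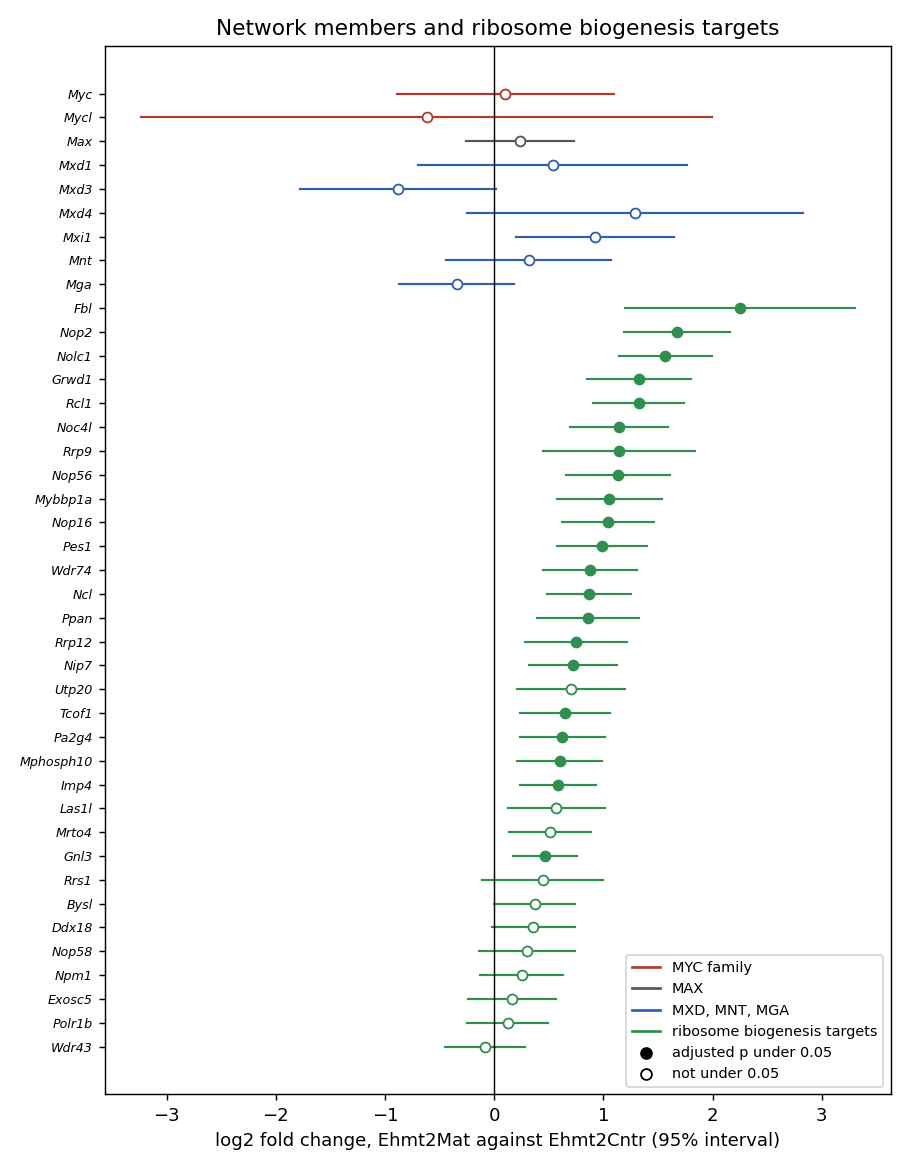
Log2 fold change of Ehmt2Mat against Ehmt2Cntr with its 95% interval (lines) for the 9 members tested and the 32 MYC target genes of ribosome biogenesis, with filled points for adjusted p under 0.05 by edgeR. The members scatter on both sides of 0 with wide intervals, and 31 of 32 ribosome biogenesis targets lie above 0, with 21 filled.

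Levels of different members were compared per length, as CPM divided by exon length in kb. In Ehmt2Cntr the medians ran from Max (28.6 CPM per kb) through Myc (17.4), Mga (5.91), Mxd3 (4.56), Mxi1 (2.81), Mnt (2.78), Mxd1 (0.877), Mxd4 (0.626) and Mycl (0.126) to Mycn (0). In this order Myc was above Mga in 9 of 9 embryos and Mnt above Mxd1 in 8 of 9. Max exceeded Myc in 6 of 9, Mga exceeded Mxd3 in 5 of 9 and Mxi1 exceeded Mnt in 4 of 9. Mxd3 was above Mxi1, and Mxd1 above Mxd4, in 6 of 9. Mxd4 was above Mycl, and Mycl above Mycn, in 5 of 9. Apart from Myc over Mga and Mnt over Mxd1, neighbours in this order did not differ beyond their spread. In Ehmt2Mat the order was Max (39.2 CPM per kb), Myc (21.7), Mxi1 (4.62), Mga (4.54), Mnt (3.89), Mxd3 (2.91), Mxd4 (1.73), Mxd1 (1.41), Mycl (0.276) and Mycn (0.129). Max was above Myc in 9 of 10 and Myc above Mxi1 in 10 of 10 of these embryos, while Mxi1 and Mga changed places between embryos (6 of 10), as did Mga and Mnt (5 of 10). Amplification favoured the 3′ ends of transcripts, so that values per length of a long transcript such as that of Mga can be too low.

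The summed level of the activators relative to that of the 6 repressors, per length, was 0.316 to 3.07 with a median of 1.18 in Ehmt2Cntr embryos and 0.294 to 3.19 with a median of 1.24 in Ehmt2Mat embryos. The ranges nearly coincided. Myc made up most of the activator sum, and Ehmt2Mat embryo 2 had the highest sum of activators (100.6 CPM per kb), of repressors (31.5) and of Max (70.0) of all embryos, with control 9 the highest among controls in all 3 (71.6, 26.2 and 58.2). The mean log2 CPM of 32 MYC target genes of ribosome biogenesis was 7.01 to 7.65 in Ehmt2Cntr and 7.73 to 8.61 in Ehmt2Mat. These ranges did not overlap, and those of the activator to repressor ratio did. The list of targets was chosen with these results in view. Myc, which dominates the ratio, had an SD within groups of 1.18 on the log2 scale, against a median of 0.43 for the targets. The 2 quantities are therefore not on equal terms, and the part of the network in the higher targets was not tested.

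Controls 9, 8 and 3 had the most Myc and the lowest means of the controls (7.01, 7.19 and 7.09), and Ehmt2Mat embryo 2 had the most Myc of all, with 8.25 within the range of its group. Ehmt2Mat embryo 9 had the highest mean of the targets (8.61) with 97.7 CPM of Myc, below embryos 2 and 10 of its group.

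**Figure D3:**
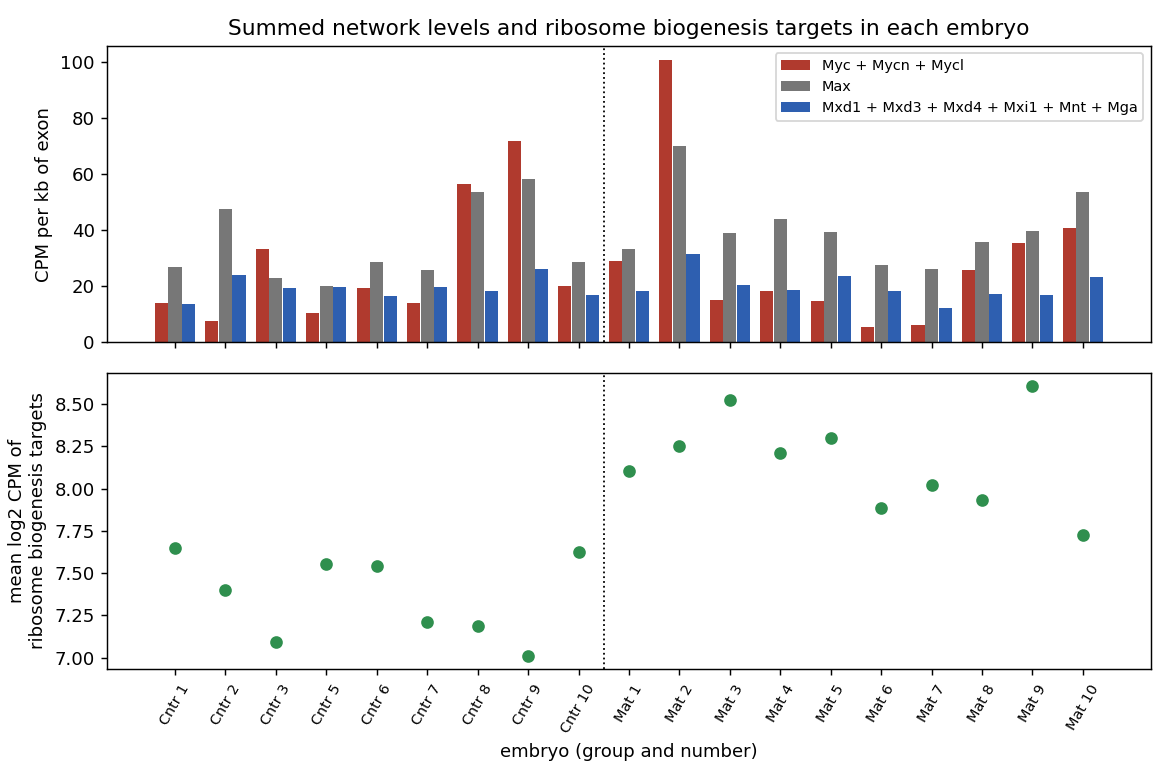
Upper panel, summed CPM per kb of exon of the MYC family (red), Max (grey) and the 6 repressors (blue) in each of the 19 embryos. Lower panel, mean log2 CPM (prior count 2) of the 32 ribosome biogenesis targets in the same embryos, all Ehmt2Mat values (7.73 or more) lying above all Ehmt2Cntr values (7.65 or less), while the upper bars overlap. The targets were chosen with these results in view.

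**Figure D4:**
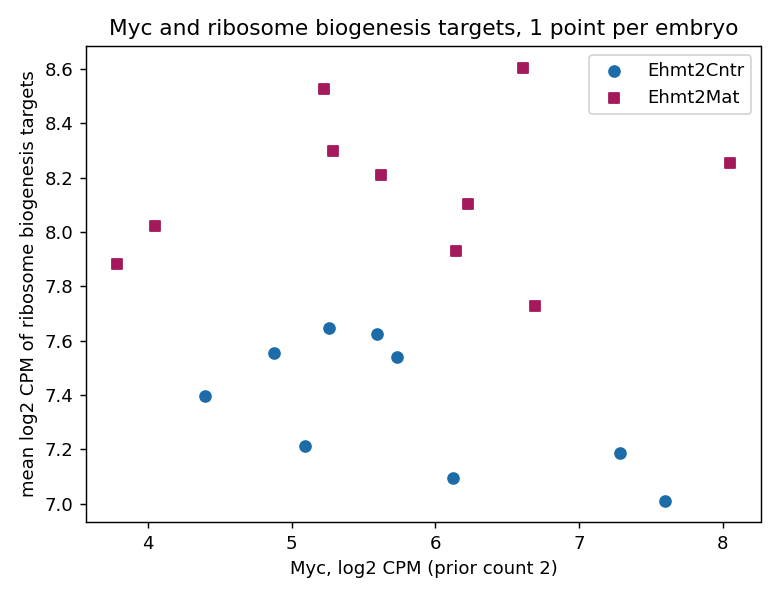
Mean log2 CPM of the 32 ribosome biogenesis targets (vertical) against log2 CPM of Myc (horizontal, prior count 2), with 1 point per embryo of 9 Ehmt2Cntr and 10 Ehmt2Mat. The groups are apart on the vertical axis (up to 7.65 against 7.73 or more) and overlap on the horizontal one. The targets were chosen with these results in view.

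Known MYC target genes of ribosome biogenesis moved in 1 direction. Of 32 genes tested 21 rose and 0 fell by edgeR (4.37% and 4.98% of all genes), with a median log2 fold change of 0.71 and 31 of 32 positive. The list was chosen with these results in view and is no independent evidence of the direction. Nolc1, a chaperone of nucleolar particles, rose by a log2 fold change of 1.57 (SE 0.21, edgeR adjusted p = 0.000178), and its mean went from 662 ± 177 CPM in Ehmt2Cntr to 1961 ± 683 CPM in Ehmt2Mat (SD, n = 9 and 10). Nop2, an rRNA methyltransferase, rose by 1.67 (SE 0.23, edgeR adjusted p = 0.000266), Rcl1, an rRNA cleavage factor, by 1.32 (SE 0.20, adjusted p = 0.000435) and Grwd1, a ribosome assembly factor, by 1.33 (SE 0.23, adjusted p = 0.00102). In 5 of the 32 genes (Nolc1, Rcl1, Grwd1, Noc4l and Pes1) every Ehmt2Mat embryo was above every Ehmt2Cntr embryo, as the groups of 0.519% of all genes did in either direction. The median SD within groups was 0.43 on the log2 scale, smaller than for each of the members. With zygotic copies as a covariate, and in the +/- embryos alone, 0 of 32 genes passed (median log2 fold changes 0.53 and 0.52, with 30 and 31 of 32 positive), where 0.0255% and 0.00746% of all genes passed, and at an unadjusted p under 0.05 there were 12 and 7 (8.64% and 6.76% of all genes). Without controls 8 and 10 there were 14 of 32.

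Of 35 other MYC targets tested, 3 rose and 1 fell by edgeR, a share near the 9.35% of all genes, with a median log2 fold change of 0.16 and 21 positive. The median was 0.05 without controls 8 and 10. Tmem97, a sterol-regulated membrane protein gene, rose by 1.47 (SE 0.25, edgeR adjusted p = 0.000922), Sord, of the polyol pathway, by 0.67 (SE 0.19, adjusted p = 0.0305) and Tfb2m, a mitochondrial transcription factor, by 0.88 (SE 0.27, adjusted p = 0.0395). Dctpp1, a nucleotide pyrophosphatase gene, fell by 1.71 on the log2 scale (SE 0.37, edgeR adjusted p = 0.00464). Odc1, Cad and Cdk4, among the best known targets of MYC in growth and the cell cycle, did not pass. Their log2 fold changes were -0.52, 0.30 and -0.57 (edgeR adjusted p = 0.0863, 0.391 and 0.0754). These 3 genes were named after their values were seen and do not stand for the list, in which 21 values were positive. The count was 2 without any 1 of controls 1, 2, 3 and 5 or Ehmt2Mat embryo 4.

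Among 18 cofactors and regulators of MYC proteins 4 passed by edgeR, beside 9.35% of all genes, and the 3 that rose are described. Aurka, a mitotic kinase that also stabilizes N-MYC, rose by a log2 fold change of 1.36 (SE 0.18, edgeR adjusted p = 0.000178), its mean going from 317 ± 87.7 CPM in Ehmt2Cntr to 814 ± 203 CPM in Ehmt2Mat (SD, n = 9 and 10), with every Ehmt2Mat embryo above every control. Zbtb17, which encodes MIZ1, through which MYC represses genes, rose by 0.84 (SE 0.20, edgeR adjusted p = 0.0111), and Kat5, a histone acetyltransferase recruited by MYC, by 0.97 (SE 0.31, adjusted p = 0.0452). The number that passed was 2 without any 1 of controls 2, 6, 7 and 8 or Ehmt2Mat embryos 1, 2, 3, 4, 5, 7 and 9, fits in which 7.50% to 8.72% of all genes passed, and 3 without both controls 8 and 10 (2 of them risers). The acetyltransferase scaffold gene Trrap and the ligase gene Fbxw7, which marks MYC for degradation, did not pass, with log2 fold changes of 0.58 and -0.87.

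Of 8 corepressor genes used by MXD proteins 0 rose and 1 fell by edgeR, near the 9.35% of all genes that passed. Rbbp4, a histone-binding subunit of several chromatin complexes, fell by 1.12 on the log2 scale (SE 0.35, edgeR adjusted p = 0.0455), and this count fell to 0 when any 1 of controls 3 and 5 to 9 or Ehmt2Mat embryos 2 to 9 was left out, and without both controls 8 and 10. Sin3a and Hdac1 did not pass, with log2 fold changes of 0.55 and 0.24. Of 12 genes of the MGA and E2F6 complex, Ehmt1 and Ehmt2 included, 1 fell and 0 rose, again a share near the 9.35% of all genes. E2f6, its DNA-binding repressor, had a mean of 34.1 ± 14.8 CPM in Ehmt2Cntr and 12.03 ± 9.30 CPM in Ehmt2Mat (SD, n = 9 and 10), and fell by 1.499 on the log2 scale (SE 0.43, edgeR adjusted p = 0.0287). No Ehmt2Mat embryo was above the Ehmt2Cntr median of E2f6. The call on this list was lost without control 1, control 8 or Ehmt2Mat embryo 4, and there were 2 without control 5.

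Of 11 germline genes held silent through this complex in embryonic stem cells, 2 rose and 1 fell by edgeR, where 4.37% of all genes rose and 4.98% fell. Tex101, a germ cell surface protein gene, rose by a log2 fold change of 2.22 (SE 0.66, edgeR adjusted p = 0.0331) and Hormad1, of the meiotic chromosome axis, by 1.498 (SE 0.45, adjusted p = 0.0351). Stk31, a germ cell kinase gene, fell by 1.36 on the log2 scale (SE 0.43, edgeR adjusted p = 0.0452). The median of the list was 0.10 and 6 of 11 values were positive. The number of calls fell to 0 without control 5, control 7, Ehmt2Mat embryo 2 or Ehmt2Mat embryo 4, to 1 without any 1 of controls 1, 2, 3, 8 and 9 or Ehmt2Mat embryos 8 and 9, and to 2 without any 1 of control 6 or Ehmt2Mat embryos 1, 3, 5, 6 and 7. It was 3 without control 10 or Ehmt2Mat embryo 10, and 2 without both controls 8 and 10, where the fall of Stk31 was lost.

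In the wider network, Mlx, its partners in glucose sensing Mlxip and Mlxipl, and Bmyc had log2 fold changes of -0.43, 0.99, 0.11 and -0.79. Of these 4 genes 0 passed by edgeR (1 at an unadjusted p under 0.05, Mlxip, and 0 by DESeq2). Mlxip had an edgeR adjusted p of 0.122 and was above the Ehmt2Cntr median in 10 of 10 Ehmt2Mat embryos. Without controls 8 and 10 there were 0 at an unadjusted p under 0.05. The list held 1 call without control 3. Mycs did not pass the filter.

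Within the Ehmt2Mat embryos, the 5 Ehmt2M/Z were compared with the 5 Ehmt2M/+ to see whether the zygotic allele moved the network. Of 10 members tested 0 passed by edgeR and 0 by DESeq2, and 0 had an unadjusted p under 0.05, against 0%, 0.0247% and 2.21% of all genes. In 9 of 10 members the value was lower without a zygotic copy, Mnt being the exception (log2 fold change 0.41). The median of the members was -0.61, against -0.04 over all genes. Both the count and the median leaned on embryo 2. Without it 3 of 10 members were positive and their median was -0.11, against -0.03 over all genes. The mean of Myc was 55.4 ± 31.6 CPM in the Ehmt2M/Z and 98.0 ± 99.3 CPM in the Ehmt2M/+ embryos (SD, n = 5 each), and its log2 fold change of -0.82 (SE 0.63) became -0.02 without embryo 2. Mga was 63.6 ± 20.03 CPM and 91.5 ± 30.02 CPM (SD, n = 5 each), with a log2 fold change of -0.52 (SE 0.30, edgeR adjusted p = 0.9997). Mxi1, with 26.1 ± 13.7 CPM and 31.3 ± 22.3 CPM (SD, n = 5 each), differed by less than its spread.

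As a description, the genes most like the 2 members with the highest mean CPM were sought over the 19 embryos, after subtraction of group means. For Mga these were Poc1b (r = 0.82), Cnot6 (0.81) and Gtf2a1 (0.80), and for Max they were Sec24a (r = 0.78), Tfb2m (0.76) and Csgalnact2 (0.75). The points share libraries and depth.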

How the data were processed

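RNA of single 8C embryos at E2.5 was amplified from poly(A) with a bias to 3′ ends and sequenced. The authors deposited raw counts for 19 of the 20 embryos in the labels, without normalization, and control 4 is not analysed here. Per the file headers, reads on exons of Ensembl release 82 (GRCm38) were counted with featureCounts 1.5.0-p1, with at least 10 overlapping bases, reads given to every gene they overlap, multi-mapping reads kept and no strand. The submitters' notes name TopHat2 and DESeq2. From these counts, genes were filtered by edgeR 4.0.16 in R 4.3.3 (11754 kept), scaled by TMM and tested by quasi-likelihood, and p-values were adjusted after Benjamini-Hochberg over all genes, with a threshold of 0.05. CPM use TMM-scaled library sizes. The zygotic comparison (12195 genes) was fitted separately. Alternatives were RLE and upper-quartile scaling, DESeq2 1.42.0, no filter, at least 10 counts in every embryo, embryo number as a replicate block, zygotic copies as a covariate, +/- embryos alone and each embryo left out, and, added after seeing the data, removal of controls 8 and 10 and the relation of Myc to its targets. The block fit left out Ehmt2Mat embryo 4, as control 4 has no counts. Scripts were tested on simulated counts. Members and gene lists were chosen with earlier results of these data known. All 10 members are named, and in each list at most 4 called genes per direction by smallest adjusted p. Odc1, Cad, Cdk4, Trrap, Fbxw7, Sin3a, Hdac1, Noc4l and Pes1 were named after their values were seen. Cbx3 and Wdr5 are each in 2 lists. The result of 1 gene of the cofactor list is not reported here.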

Additional observations from a re-analysis of the deposited data

Results flagged for a closer look

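An embryo far from the others of its group was looked for in the 10 members in both groups, 20 sets of embryos in all, of which chance would place about 1 in 20 past the limit. It was found for Mxd1 in Ehmt2Cntr, where control 2 (1 count) was the lowest and its gap to the next embryo was 0.553 of the whole range on the log2 scale, above the limit of 0.493 for 9 embryos. It was also found for Mxi1 in Ehmt2Cntr, where control 1 (102 counts, 5.91 CPM) was the lowest, with a gap of 0.594 of the range. Without control 2 the log2 fold change of Mxd1 was 0.35 in place of 0.53. Without control 1 the smallest edgeR adjusted p among the members was 0.159, in place of 0.1002.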

How the results depend on the processing

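For the members, 0 of the 6 to 10 tested passed under every alternative run except DESeq2, which called 1 (Mxi1, log2 fold change 0.94), and 0 passed whichever embryo was removed. Of the fold changes of single genes, 263 kept direction and side of the threshold and 8 reversed. Reversed values were those of Mga with zygotic copies as a covariate (0.40) and among +/- embryos alone (0.40), of Mycl without control 3 (0.42), and of Myc without Ehmt2Mat embryo 2 (-0.36), control 2 (-0.04) or control 5 (-0.0036). With embryos left out in turn Myc ranged from -0.36 to 0.44 and Mycl from -0.79 to 0.42.

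The embryo numbers did not pair the embryos: the deviations of the 9 same-numbered pairs correlated at 0.0125 on average (-0.156 to 0.0856), and 0 controls correlated best with their own number. The fit with the number as a replicate block left out Ehmt2Mat embryo 4, as control 4 has no counts. Calls fell to 11 for ribosome biogenesis targets, 2 for other targets, 2 for cofactors, 0 for corepressors and 1 for germline genes. Without this embryo and with no block, the calls of these lists were 17, 2, 2, 0 and 0. In the block fit the log2 fold changes of Myc (-0.10) and Mycl (0.98) reversed. With zygotic copies as a covariate, and among +/- embryos alone, 0 genes of each of these lists and of the MGA complex were called. In the second fit 8 embryos were compared, and in both few genes of any kind passed. Calls among corepressors were 0 with upper-quartile scaling, with no filter and without controls 8 and 10, and calls among other targets were 7 with at least 10 counts in every embryo. The causes were not tested.

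With embryos left out in turn, calls ranged from 15 to 22 for ribosome biogenesis targets, 2 to 5 for other targets, 2 to 4 for cofactors, 0 to 1 for corepressors, 0 to 2 for the MGA complex and 0 to 3 for germline genes. Within Ehmt2Mat, Pearson's r of Myc and the ribosome biogenesis targets turned to -0.00569 without embryo 6 (-0.00569 to 0.395 over all embryos left out). Mycn and Mycl were at 0 counts in several embryos, control 8 with 29402786 counts in total among them, and whether depth limits them was not tested.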

Other observations

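After the values had been seen, the level of Myc was set against the mean log2 CPM of the 32 ribosome biogenesis targets within each group, as 2 relations. In the 9 Ehmt2Cntr embryos Pearson's r was -0.64 (exact permutation test, two-sided, p = 0.0713, adjusted 0.143) and Spearman's rho was -0.58 (exact permutation p = 0.108, adjusted 0.216). Without controls 9 and 8, the embryos farthest from the median of Myc, r was -0.22, so that the relation rests on them. In the 10 Ehmt2Mat embryos r was 0.18 (permutation test, p = 0.610, adjusted 0.610) and rho was 0.10 (permutation p = 0.785, adjusted 0.785), and r was -0.09 without embryos 2 and 6. When single embryos were left out, r was between -0.73 and -0.44 in Ehmt2Cntr, with p = 0.0443 by exact permutation without control 7, and between -0.00569 and 0.395 in Ehmt2Mat, where the lowest was without embryo 6. The p without control 7 was not adjusted, and was singled out from fits that each left out 1 embryo. Neither relation passed the adjustment. The 3 controls with the highest Myc (9, 8 and 3) were the 3 with the lowest mean of the targets, and Ehmt2Mat embryo 2, with the highest Myc of all, was within the range of its group.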
